A study of Mus musculus with 6 samples.

Results

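The mitochondrial ribosomal proteins are described here as the genes whose annotated symbol begins with Mrps or Mrpl and a number, taken from probes annotated with a single gene symbol. The rule found 77 genes, read by 85 probes, among 19935 genes on the array, and it used no measured value. Of the 77 genes, 29 carry an Mrps symbol, for the small subunit of the mitochondrial ribosome, and 48 an Mrpl symbol, for the large subunit. A gene with several probes was given their mean, which applied to 8 of the 77. A further probe annotated to both Ccdc142 and Mrpl53 was left out.

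The study exposed cultured peritoneal macrophages of C57BL/6 mice to ligands of innate immune receptors and measured total RNA on Affymetrix expression arrays. Cells received poly I:C at 2 µg/mL for 24 h, or PAM at 1 µg/mL for 24 h, or were left untreated as the control, with 2 arrays for each of the 3 groups. Poly I:C is a synthetic double-stranded RNA sensed by Toll-like receptor 3 and by cytosolic RNA sensors, and PAM stands for a synthetic bacterial-type lipopeptide sensed by Toll-like receptor 2. The sample labels name the lipopeptide as PAMCSK3 on one array and PAMCSK4 on the other. All groups were cultured in DMEM with fetal bovine serum. The labels give no genotype beyond the strain, no age or sex, no culture time for the untreated cells, and no statement on whether the arrays of a group came from separate mice or cultures. The p-values below therefore measure only the spread between these arrays, which may be technical.

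Each deposited value is a log2 value from which the probe's median over the 6 arrays was already subtracted. A value of 0.5 on an array thus lies 0.5 log2 units above that probe's median, and the values hold no level that could be compared between genes. Folds rest on the log base being 2, which was taken from the size of the values. The numerical steps left in the file show which genes lay at 8 or above on every array before the subtraction, a rough mark of a clear signal. That held for 54 of the 77 genes (70.1%), against 29.2% of all genes and 1.27% of 1027 olfactory receptor genes. It held for 17 of 29 Mrps genes and 37 of 48 Mrpl genes.

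The labelled cell type was checked against marker genes. All 7 measured macrophage markers lay at 8 or above on every array, and none of the 3 B cell, 4 T and NK cell, 5 neutrophil or 4 mast cell markers did. The 7 macrophage markers did not move together. Against control, limma called 2 up and 2 down on the poly I:C arrays, and 2 up and 3 down on the PAM arrays. Fcgr1 differed from control by 2.65 with poly I:C and by -1.72 with PAM. Adgre1 gave -0.97 and 1.38, Itgam -1.49 and -0.49, and Mertk 0.22 and -1.23. Of 6 mesothelial and fibroblast markers, Col1a1, Col1a2 and Dcn lay at 8 or above. The mean of the neutrophil markers was -0.09 and -0.00 on the poly I:C arrays, 0.50 and 0.43 on the PAM arrays, and 0.00 and -0.09 on the control arrays, with S100a8 and Camp the 2 markers that rose with PAM. The mean of the B cell markers was -0.02 and 0.08 with poly I:C, 0.02 and 0.34 with PAM, and -0.15 and -0.32 in control. The mean of the mesothelial and fibroblast markers was -0.14 and -0.07 with poly I:C, 0.16 and 0.19 with PAM, and 0.17 and -0.10 in control. That mean merges markers that went opposite ways with PAM, Dcn at 0.95 ± 0.15 over control and Upk3b at -0.45 ± 0.11. The part of other cells in the results below was not tested.

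Mitochondria keep a small genome of their own, and in mammals the proteins it encodes are all core subunits of the respiratory chain and of ATP synthase. The mitochondrial ribosome makes these proteins: its small subunit binds and decodes the messenger RNA, and its large subunit joins the amino acids and releases the chain at the inner membrane. The ribosomal RNA comes from the mitochondrial genome, but every ribosomal protein is encoded in the nucleus, made in the cytosol and imported. Many of these proteins have a counterpart in the bacterial ribosome, and others were added during the evolution of mitochondria. In macrophages, respiratory activity is known to change with activation by microbial ligands.

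With poly I:C, more of these genes rose than fell. By limma with Benjamini-Hochberg adjustment over all genes, 25 of the 77 were higher with poly I:C than in control, 11 were lower and 41 did not pass the threshold of 0.05. Among all genes tested, 12.1% were called higher, 18.2% lower and 30.4% in either direction, against 32.5%, 14.3% and 46.8% of the Mrp genes. The sets differ in signal, since 70.1% of the Mrp genes and 29.2% of all genes lay at 8 or above on every array. Call shares over all genes of that class were not taken, here or in the other comparisons. The median log2 difference was 0.08 over the 77 genes and 0.0081 over all genes. Over all genes at 8 or above on every array the median was -0.068, and over the 54 Mrp genes of that class it was 0.14. The calls split by this class: 20 genes were higher and 4 lower among the 54 (37.0% and 7.41%), and 5 were higher and 7 lower among the 23 others (21.7% and 30.4%). Of the 11 decreases, 7 were thus of genes without that mark of a clear signal: Mrpl17, Mrpl33, Mrpl42, Mrps14, Mrps25, Mrps27 and Mrps28. The 5 increases of genes without it were those of Mrpl13, Mrpl27, Mrpl41, Mrpl47 and Mrps30. The arrays of the groups compared did not overlap for any called gene. With 2 arrays a group this follows largely from the call and is no added support. Uncalled genes such as Mrpl14 and Mrps2 did not overlap either. The changes were small: no gene reached a 2-fold change in any comparison, and 11 of the 36 called with poly I:C differed by at least 0.5 on the log2 scale. The count of higher genes was 16 without poly I:C replicate 1, and the count of lower genes was 7 without poly I:C replicate 2. In RNA from whole cultures, fewer cells of a type and less RNA per cell cannot be told apart.

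With PAM, 16 of the 77 genes were higher than in control and Mrps26 alone was lower, while 60 did not pass. Among all genes, 11.0% were called higher with PAM, 14.0% lower and 25.0% in either direction, against 20.8%, 1.3% and 22.1% of the Mrp genes. The median log2 difference was 0.06 over the 77 genes and -0.0015 over all genes. Only 4 called genes differed by at least 0.5. Of the 54 genes at 8 or above on every array, 11 were higher and 1 lower (20.4% and 1.85%). Of the 23 others, 5 were higher and 0 lower by limma (21.7% and 0.0%). Those 5 were Mrpl27, Mrpl41, Mrpl57, Mrps10 and Mrps28. The count of higher genes was 10 without PAM replicate 1. The count of lower genes was 0 by limma without PAM replicate 1, PAM replicate 2 or control replicate 2, and 3 without control replicate 1; over all 6 arrays 3 were lower at an unadjusted p under 0.05. Both ligand comparisons use the same 2 control arrays, so the values of each are given side by side and no agreement between them is drawn.

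Between the ligands, 13 genes were higher and 11 lower on the poly I:C arrays relative to the PAM arrays. Among all genes, 12.9% were called higher, 15.8% lower and 28.7% in either direction, against 16.9%, 14.3% and 31.2% of the Mrp genes. The median log2 difference was 0.01 over the 77 genes and 0.01 over all genes. The count of higher genes was 8 without PAM replicate 1. The count of lower genes was 17 without control replicate 1 or without control replicate 2, and also 17 in a fit of the 4 poly I:C and PAM arrays alone.

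**Figure D1:**
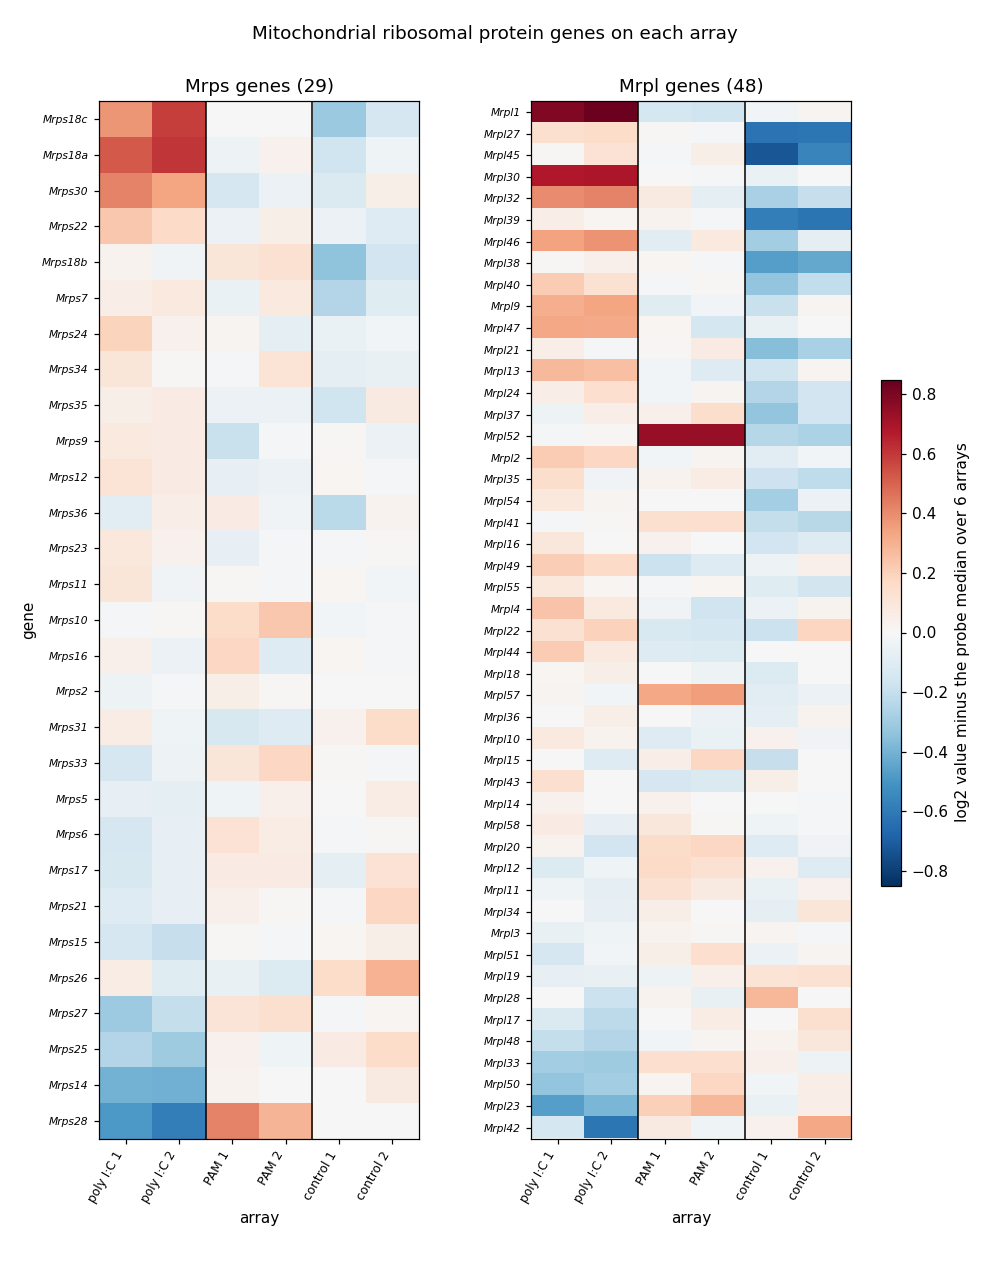
Log2 value of each of the 77 genes on each of the 6 arrays, as the difference from the probe's median (colour), with arrays in columns and genes in rows ordered by poly I:C minus control, the 29 Mrps genes on the left and the 48 Mrpl genes on the right. Mrpl1 and Mrpl30 are high on both poly I:C arrays, Mrpl52 on both PAM arrays, and Mrpl27, Mrpl39, Mrpl45 and Mrpl38 are low on both control arrays.

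The proteins of the large subunit gave the biggest increases. Mrpl1, the counterpart of the bacterial protein that forms the mobile stalk at the exit site for transfer RNA, read 0.79 and 0.83 on the poly I:C arrays, -0.15 and -0.17 on the PAM arrays, and -0.02 and 0.02 on the control arrays. Only the poly I:C arrays were high. It rose 1.75-fold with poly I:C over control (log2 difference 0.81 ± 0.06 SE, adjusted p = 1.3e-05) and exceeded its PAM value 1.96-fold (0.97 ± 0.06, adjusted p = 3.77e-06). With PAM its difference from control was -0.16 ± 0.06, which did not pass (adjusted p = 0.116), although it did among genes at 8 or above on every array alone (adjusted p = 0.0333).

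Mrpl30, a counterpart of the bacterial large subunit protein L30, was also high only on the poly I:C arrays. It read 0.68 and 0.69 with poly I:C, -0.00 and -0.01 with PAM, and -0.06 and 0.00 in control. The increase with poly I:C was 1.64-fold (0.71 ± 0.06, adjusted p = 2.96e-05), and the PAM arrays lay beside the control arrays (0.02 ± 0.06, adjusted p = 0.891).

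Mrpl52, a protein of the large subunit with no bacterial counterpart, was the gene that PAM moved furthest. It read -0.01 and 0.01 with poly I:C, 0.74 and 0.74 with PAM, and -0.24 and -0.27 in control. The PAM arrays were highest and the poly I:C arrays lay between them and the control arrays. The increase with PAM was 1.99-fold (1.00 ± 0.06, adjusted p = 3.39e-06), and that with poly I:C was 1.19-fold (0.26 ± 0.06, adjusted p = 0.0121). The smaller increase did not pass without poly I:C replicate 1 or poly I:C replicate 2 (adjusted p = 0.0509 and 0.0711). Poly I:C and PAM differed directly by -0.74 ± 0.06 (adjusted p = 1.94e-05).

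Mrpl27, the counterpart of a bacterial protein that sits near the site of peptide bond formation, read 0.13 and 0.16 with poly I:C, 0.01 and -0.01 with PAM, and -0.63 and -0.61 in control. The control arrays were the low ones. Mrpl27 was not among the genes at 8 or above on every array. The differences from control were 0.77 ± 0.06 with poly I:C (adjusted p = 1.64e-05) and 0.62 ± 0.06 with PAM (adjusted p = 7.55e-05). Its 2 probes gave 0.82 and 0.71 with poly I:C, and 0.64 and 0.60 with PAM. The ligands differed from each other by 0.14 ± 0.06, which did not pass (adjusted p = 0.129).

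Mrpl39, a large subunit protein without a bacterial counterpart, read 0.05 and 0.02 with poly I:C, 0.03 and -0.02 with PAM, and -0.59 and -0.62 in control. Here too both treated groups lay above the control arrays and beside each other. The differences were 0.64 ± 0.06 with poly I:C (adjusted p = 6.05e-05), 0.61 ± 0.06 with PAM (adjusted p = 0.000103) and 0.03 ± 0.06 between the ligands (adjusted p = 0.803).

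Mrpl32, a protein whose processing after import by an inner membrane protease is a known step of ribosome assembly, had the poly I:C arrays highest, the control arrays lowest and the PAM arrays between them. It read 0.40 and 0.42 with poly I:C, 0.07 and -0.07 with PAM, and -0.28 and -0.20 in control. The differences were 0.65 ± 0.07 with poly I:C (adjusted p = 0.000138), 0.24 ± 0.07 with PAM (adjusted p = 0.045) and 0.41 ± 0.07 for poly I:C minus PAM (adjusted p = 0.00231). Leaving out any array but PAM replicate 2 ended the call with PAM (adjusted p between 0.0521 and 0.306), and so did the replicate block (adjusted p = 0.0605).

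The promoters of these 6 genes are shown because they are among the largest increases and moved in different ways across the 3 groups. Each is the RefSeq window from 250 bases before to 50 bases after the start, on build GRCm38.p6, written 5′ to 3′ along the gene. Capitals mark matches, on either strand, to a motif of NRF1 (CGCNTGCGC), of ETS factors such as GABPA (CCGGAAG) or of YY1 (AAGATGGC), factors known for regulating nuclear genes of mitochondria. The windows lie at chr14:54426659-54426958 on the plus strand (Mrpl52), chr5:96209865-96210164 on the plus strand (Mrpl1), chr1:37890227-37890526 on the plus strand (Mrpl30), chr11:94653541-94653840 on the plus strand (Mrpl27), chr16:84735195-84735494 on the minus strand (Mrpl39) and chr13:14612988-14613287 on the minus strand (Mrpl32).
Mrpl52: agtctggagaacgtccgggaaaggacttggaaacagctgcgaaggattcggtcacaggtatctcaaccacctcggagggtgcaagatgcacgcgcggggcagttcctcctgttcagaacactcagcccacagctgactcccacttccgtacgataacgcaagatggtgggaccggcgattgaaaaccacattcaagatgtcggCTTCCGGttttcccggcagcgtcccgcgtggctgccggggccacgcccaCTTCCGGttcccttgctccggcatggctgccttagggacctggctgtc
Mrpl1: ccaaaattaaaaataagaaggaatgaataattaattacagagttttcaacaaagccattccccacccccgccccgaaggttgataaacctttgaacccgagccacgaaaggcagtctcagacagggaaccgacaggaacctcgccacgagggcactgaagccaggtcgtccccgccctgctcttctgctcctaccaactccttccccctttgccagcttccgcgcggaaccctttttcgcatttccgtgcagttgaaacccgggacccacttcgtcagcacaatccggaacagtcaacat
Mrpl30: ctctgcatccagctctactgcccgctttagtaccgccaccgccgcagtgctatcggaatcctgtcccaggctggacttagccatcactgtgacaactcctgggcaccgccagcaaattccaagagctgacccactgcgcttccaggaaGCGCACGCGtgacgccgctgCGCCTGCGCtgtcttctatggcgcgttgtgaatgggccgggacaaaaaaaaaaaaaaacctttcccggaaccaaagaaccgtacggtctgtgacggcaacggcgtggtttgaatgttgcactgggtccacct
Mrpl27: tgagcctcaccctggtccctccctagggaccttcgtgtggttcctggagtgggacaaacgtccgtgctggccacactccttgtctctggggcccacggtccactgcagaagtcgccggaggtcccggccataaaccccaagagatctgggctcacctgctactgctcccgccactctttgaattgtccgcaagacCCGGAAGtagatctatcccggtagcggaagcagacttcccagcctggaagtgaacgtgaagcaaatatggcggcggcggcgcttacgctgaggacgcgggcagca
Mrpl39: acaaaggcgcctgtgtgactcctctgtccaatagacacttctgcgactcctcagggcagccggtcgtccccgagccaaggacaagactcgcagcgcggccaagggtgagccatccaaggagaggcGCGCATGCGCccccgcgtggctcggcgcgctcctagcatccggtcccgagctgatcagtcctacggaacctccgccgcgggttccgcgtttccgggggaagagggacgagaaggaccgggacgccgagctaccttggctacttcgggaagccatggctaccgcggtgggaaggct
Mrpl32: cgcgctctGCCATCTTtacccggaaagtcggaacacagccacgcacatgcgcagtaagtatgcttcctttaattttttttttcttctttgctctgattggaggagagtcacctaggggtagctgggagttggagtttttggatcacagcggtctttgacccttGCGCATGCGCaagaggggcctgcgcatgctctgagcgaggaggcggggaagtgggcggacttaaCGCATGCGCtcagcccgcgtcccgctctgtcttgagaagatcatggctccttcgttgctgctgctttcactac
The Mrpl52 window holds the ETS letters at 2 places, the first beginning 47 bases before the start and the second just past it. The Mrpl27 window holds them once, 55 bases before the start. The Mrpl30 window holds the NRF1 letters 102 and 82 bases before the start. In the Mrpl39 window they lie on both strands in overlap, from 125 bases before the start. The Mrpl32 window has such an overlapping match from 87 bases before the start, another 23 bases before it, and the YY1 letters 242 bases before it. In the Mrpl1 window none of the 3 motifs was found. That window begins at 96209865, past the start of the annotated gene at 96209498. Bases before the annotated start were thus not searched, and the result says only that these letters are not in this window.

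The shares of windows with these motifs are given as a description, without a test, beside those of all promoters in the table. The table held 68 of the 77 genes, with 74 windows, out of 32851 windows in all. The NRF1 letters were in 21.6% of the member windows and 6.25% of all windows, the ETS letters in 33.8% and 8.86%, and the YY1 letters in 16.2% and 2.75%. At least 1 of the 3 was in 58.1% of member windows and 16.0% of all. The letters GAAANNGAA, found at the core of the element through which interferons act, were in 9.46% of member windows and 8.56% of all. Of the 43 genes with at least 1 of the first 3 motifs, 15 rose, 5 fell and 23 did not pass with poly I:C, beside 23, 10 and 35 of the 68 genes with a window. With PAM the 43 genes gave 10 higher, 1 lower and 32 not passed, beside 14, 1 and 53 of the 68. Matches of different motifs can overlap, since the ETS letters end and the YY1 letters begin with AAG, and a match is a description of the sequence and not evidence of binding.

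Other large subunit genes rose with 1 or both ligands. Mrpl45, which anchors the ribosome to the inner membrane at the mouth of the exit tunnel, read 0.01 and 0.12 with poly I:C, -0.01 and 0.05 with PAM, and -0.73 and -0.56 in control. Its differences from control were 0.71 ± 0.08 with poly I:C (adjusted p = 0.000126) and 0.66 ± 0.08 with PAM (adjusted p = 0.000245). Mrpl38, a protein of the central protuberance, read 0.01 and 0.04 with poly I:C, 0.02 and -0.01 with PAM, and -0.47 and -0.43 in control, differences of 0.48 ± 0.06 and 0.46 ± 0.06 (adjusted p = 0.000372 and 0.000608). Both genes were low on the control arrays, and the ligands differed by only 0.05 ± 0.08 for Mrpl45 and 0.02 ± 0.06 for Mrpl38, neither of which passed (adjusted p = 0.748 and 0.879). Mrpl46, another large subunit protein without a bacterial counterpart, read 0.34 and 0.38 with poly I:C, -0.10 and 0.08 with PAM, and -0.29 and -0.08 in control. It rose with poly I:C (0.55 ± 0.09, adjusted p = 0.00147) and was higher than with PAM (0.37 ± 0.09, adjusted p = 0.0139). Without poly I:C replicate 1, poly I:C replicate 2 or PAM replicate 1 its difference between the ligands did not pass (adjusted p = 0.0636, 0.0941 and 0.115).

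Among the genes that rose with PAM, Mrpl57 read 0.02 and -0.02 with poly I:C, 0.33 and 0.36 with PAM, and -0.09 and -0.05 in control. The PAM arrays stood apart, at 0.42 ± 0.06 over control (adjusted p = 0.00116), while poly I:C gave 0.07 ± 0.06 (adjusted p = 0.476). Poly I:C and PAM differed by -0.34 ± 0.06 (adjusted p = 0.00294). Mrpl21 and Mrpl41 rose by 0.36 each with PAM and by 0.34 and 0.22 with poly I:C. The Mrpl41 call with poly I:C ended without poly I:C replicate 1, poly I:C replicate 2 or control replicate 2 (adjusted p = 0.0854, 0.112 and 0.0865). The remaining increases with PAM, from 0.21 to 0.37, were those of Mrps18b, Mrps28, Mrpl37, Mrpl40, Mrpl23, Mrpl35, Mrpl32 and Mrps10. Several of these calls rested on single arrays. Leaving out any 1 of the 6 arrays ended the Mrps10 call (adjusted p between 0.0677 and 0.24), and leaving out any PAM or control array ended that of Mrpl35 (adjusted p between 0.0684 and 0.2). The Mrpl40 call ended without PAM replicate 1, PAM replicate 2 or control replicate 1 (adjusted p = 0.0912, 0.113 and 0.0902), and that of Mrpl37 without PAM replicate 2 or control replicate 1 (adjusted p = 0.106 and 0.0593).

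**Figure D2:**
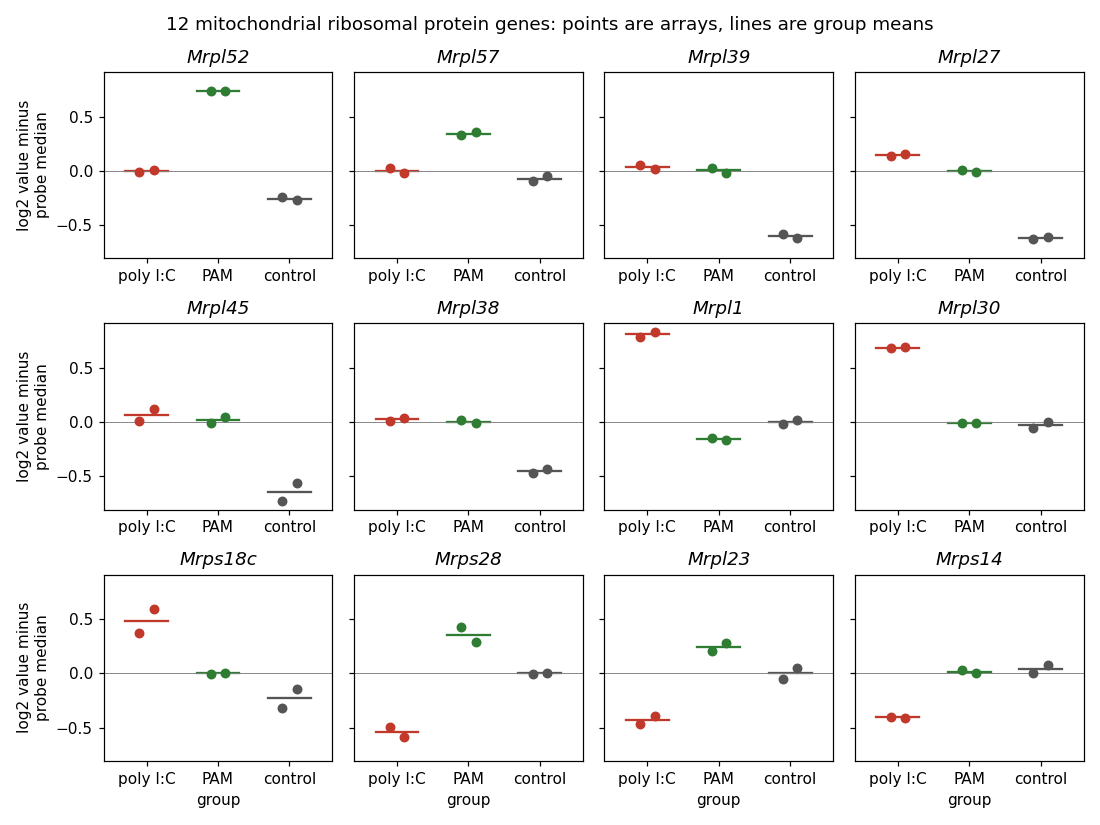
Log2 value minus the probe median (vertical axis) of 12 genes named in the text on each array, with poly I:C on the left, PAM in the middle and control on the right of each panel; each point is 1 array and each line a group mean. Mrpl52 reads 0.74 on both PAM arrays and -0.24 and -0.27 in control, Mrpl1 reads 0.79 and 0.83 with poly I:C, and Mrps28 reads -0.49 and -0.59 with poly I:C against 0.42 and 0.29 with PAM.

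With poly I:C, 6 genes of the large subunit fell. Mrpl42, which has no bacterial counterpart, read -0.15 and -0.62 with poly I:C, 0.08 and -0.04 with PAM, and 0.04 and 0.33 in control. Its replicates lay far apart, and the decrease with poly I:C had the highest standard error among the 77 genes (-0.56 ± 0.15, adjusted p = 0.0182). It did not pass without poly I:C replicate 2 (-0.33, adjusted p = 0.135) or without control replicate 2 (-0.42, adjusted p = 0.085). Mrpl33, which has one, read -0.30 and -0.30 with poly I:C, 0.14 and 0.14 with PAM, and 0.05 and -0.05 in control, a decrease of 0.30 with poly I:C (-0.30 ± 0.07, adjusted p = 0.00715). Mrpl50 read -0.34 and -0.29 with poly I:C, 0.02 and 0.18 with PAM, and -0.02 and 0.06 in control. Its difference was -0.33 ± 0.08 (adjusted p = 0.00842), and 0.0618 was the adjusted p without poly I:C replicate 1. Mrpl48 and Mrpl17 differed by -0.29 ± 0.07 (adjusted p = 0.00869) and -0.24 ± 0.08 (adjusted p = 0.0416). Mrpl48 did not pass without poly I:C replicate 2 (adjusted p = 0.0648). Mrpl17 did not pass in 5 of the 6 fits that left out 1 array, with adjusted p between 0.0655 and 0.235, that without control replicate 1 being the exception.

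Mrpl23 and Mrps28 fell with poly I:C and rose with PAM. Mrpl23, the counterpart of a bacterial protein at the mouth of the exit tunnel, read -0.47 and -0.39 with poly I:C, 0.20 and 0.28 with PAM, and -0.05 and 0.05 in control. The 3 groups did not overlap, with poly I:C below control and PAM above it. The differences were -0.43 ± 0.07 with poly I:C (adjusted p = 0.00159), 0.24 ± 0.07 with PAM (adjusted p = 0.036) and -0.67 ± 0.07 between the ligands (adjusted p = 9.55e-05). Leaving out any array but control replicate 2 ended the call with PAM (adjusted p between 0.0564 and 0.209). Both Mrpl23 probes fell with poly I:C, at -0.44 and -0.41. Mrps28, a small subunit protein, read -0.49 and -0.59 with poly I:C, 0.42 and 0.29 with PAM, and -0.01 and 0.01 in control. Its order of groups was the same, with differences of -0.54 ± 0.07 (adjusted p = 0.000461), 0.36 ± 0.07 (adjusted p = 0.00656) and -0.89 ± 0.07 between the ligands (adjusted p = 1.7e-05). Without PAM replicate 1 the rise of Mrps28 with PAM did not pass (0.29, adjusted p = 0.0688).

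In the small subunit, 6 of 29 Mrps genes rose and 5 fell with poly I:C. The 3 Mrps18 genes are paralogues of a single bacterial protein, and of their products Mrps18a sits in the large subunit while Mrps18b and Mrps18c sit in the small one. Mrps18c read 0.37 and 0.59 with poly I:C, -0.00 and 0.00 with PAM, and -0.31 and -0.14 in control, an increase of 0.71 ± 0.09 with poly I:C (adjusted p = 0.000309). Mrps18a read 0.52 and 0.61 with poly I:C, -0.04 and 0.04 with PAM, and -0.17 and -0.04 in control, an increase of 0.67 ± 0.08 (adjusted p = 0.000135). Mrps18b read 0.03 and -0.03 with poly I:C, 0.10 and 0.13 with PAM, and -0.34 and -0.17 in control, with increases of 0.25 ± 0.08 with poly I:C (adjusted p = 0.0339) and 0.37 ± 0.08 with PAM (adjusted p = 0.00658). Leaving out any array but control replicate 2 ended the Mrps18b call with poly I:C (adjusted p between 0.0571 and 0.172). Poly I:C exceeded PAM for Mrps18a and Mrps18c, by 0.57 ± 0.08 and 0.48 ± 0.09 (adjusted p = 0.000391 and 0.00321), and for Mrps18b the ligands differed by -0.12 ± 0.08, which did not pass (adjusted p = 0.344). Against control with PAM, Mrps18a gave 0.10 ± 0.08 and Mrps18c gave 0.23 ± 0.09, neither past the threshold (adjusted p = 0.433 and 0.114), though Mrps18c passed without control replicate 2 (adjusted p = 0.0491).

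Mrps30, which despite its symbol sits in the large subunit, read 0.42 and 0.33 with poly I:C, -0.14 and -0.05 with PAM, and -0.13 and 0.05 in control. The poly I:C arrays were the high ones, with 0.42 ± 0.08 over control (adjusted p = 0.00355) and 0.47 ± 0.08 over PAM (adjusted p = 0.00178). Mrps36 is known as a part of the 2-oxoglutarate dehydrogenase complex and not of the ribosome. Its differences from control of 0.08 ± 0.10 with poly I:C and 0.12 ± 0.10 with PAM did not pass (adjusted p = 0.609 and 0.478).

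Of the small subunit genes that fell with poly I:C, Mrps14, which has a bacterial counterpart, read -0.40 and -0.41 with poly I:C, 0.03 and -0.00 with PAM, and 0.00 and 0.08 in control. The PAM and control arrays lay together, and poly I:C gave -0.44 ± 0.06 against control (adjusted p = 0.000678). Mrps25 read -0.25 and -0.30 with poly I:C, 0.04 and -0.04 with PAM, and 0.07 and 0.16 in control, a difference of -0.39 ± 0.07 (adjusted p = 0.0021). Mrps27, a protein with pentatricopeptide repeats, a fold that binds RNA in other proteins, differed by -0.25 ± 0.07 (adjusted p = 0.0183), which did not pass without poly I:C replicate 1 (adjusted p = 0.125) or control replicate 2 (adjusted p = 0.0639). Mrps15 differed by -0.20 ± 0.06 (adjusted p = 0.0393), a call that leaving out any of the 6 arrays ended (adjusted p between 0.0599 and 0.19). Mrps26, the single gene lower with PAM, read 0.06 and -0.10 with poly I:C, -0.06 and -0.12 with PAM, and 0.16 and 0.29 in control. Its difference with PAM was -0.32 ± 0.08 (adjusted p = 0.02), and with poly I:C -0.24 ± 0.08, just short of a call (adjusted p = 0.051). It was called with poly I:C without poly I:C replicate 1 or control replicate 1 (adjusted p = 0.0421 and 0.0266). Without PAM replicate 1, PAM replicate 2 or control replicate 2 the call with PAM was lost (adjusted p = 0.0678, 0.118 and 0.0911).

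Mrps12 and Mrpl12 were among the genes not called in any of the 3 comparisons. Mrps12, the counterpart of a bacterial protein of the decoding site, gave 0.09 ± 0.06 with poly I:C and -0.06 ± 0.06 with PAM (adjusted p = 0.346 and 0.616). Mrpl12, the counterpart of the bacterial stalk protein that recruits translation factors, gave -0.04 ± 0.07 and 0.18 ± 0.07 (adjusted p = 0.749 and 0.119), and -0.22 ± 0.07 between the ligands (adjusted p = 0.0519). Among genes at 8 or above on every array alone, Mrpl12 passed with PAM (adjusted p = 0.0242). Without control replicate 1 Mrpl12 passed with PAM (adjusted p = 0.0447), and without either control array it passed between the ligands (adjusted p = 0.0278). The smallest differences from control were those of Mrps16 and Mrpl20 with poly I:C and of Mrpl36 and Mrps35 with PAM, each under 0.01 in size. A difference that misses the threshold does not show that groups were alike: with poly I:C the unpassed differences ran from -0.24 to 0.23, and the median standard error over the 77 genes was 0.07.

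Directly between the ligands, the genes higher with poly I:C were led by Mrpl1 and Mrpl30, followed by Mrps18a, Mrps18c, Mrps30 and Mrpl32. Mrpl47, Mrpl9, Mrpl46 and Mrpl13 came next, at 0.39 ± 0.08, 0.39 ± 0.08, 0.37 ± 0.09 and 0.33 ± 0.08. Mrpl13 did not pass without poly I:C replicate 1, poly I:C replicate 2 or PAM replicate 2 (adjusted p = 0.0732, 0.0622 and 0.0921), nor Mrpl9 without poly I:C replicate 2 or PAM replicate 1 (adjusted p = 0.051 and 0.0533). The genes lower on the poly I:C arrays relative to PAM were led by Mrps28, Mrpl52 and Mrpl23. Mrpl33, Mrps14, Mrpl50 and Mrps27 followed, at -0.44 ± 0.07, -0.42 ± 0.06, -0.41 ± 0.08 and -0.38 ± 0.07. Mrps25 and Mrps33 gave -0.28 ± 0.07 and -0.23 ± 0.07. Mrps25 did not pass without poly I:C replicate 2 or PAM replicate 1 (adjusted p = 0.0968 and 0.114), and Mrps33 without any 1 of the 4 poly I:C and PAM arrays (adjusted p between 0.0534 and 0.203). The smallest difference was that of Mrps34, at 0.001.

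For 4 of the 8 genes with several probes, 1 probe passed the threshold in a comparison and the other did not. The 2 Mrpl47 probes gave 0.75 ± 0.07 (adjusted p = 4.51e-05) and -0.02 ± 0.10 (adjusted p = 0.897) for poly I:C minus control, so the mean of 0.36 stands for neither. The 2 Mrpl41 probes gave 0.31 ± 0.07 (adjusted p = 0.00663) and 0.13 ± 0.06 (adjusted p = 0.177) with poly I:C, and both rose with PAM, by 0.40 and 0.32. The Mrpl47 probes differed likewise between the ligands, at 0.69 and 0.10 (adjusted p = 7.5e-05 and 0.543). The 2 Mrpl51 probes gave -0.07 and -0.28 for poly I:C minus PAM (adjusted p = 0.525 and 0.0467). The Mrpl23 probes lay close together with PAM, at 0.24 and 0.25, on either side of the threshold (adjusted p = 0.052 and 0.0273).

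Set side by side, the large subunit lay higher than the small subunit relative to control, by an amount that no test covers because genes are not replicates of a condition. With poly I:C, 6 of 29 Mrps genes rose and 5 fell, with a median of 0.02, and 19 of 48 Mrpl genes rose and 6 fell, with a median of 0.17. With PAM, 3 Mrps genes rose and 1 fell, with a median of 0.03, and 13 Mrpl genes rose and 0 fell by limma, with a median of 0.09. At an unadjusted p under 0.05, 1 Mrpl gene was lower with PAM. Read against all genes, the Mrps share lower with poly I:C (17.2%, against 18.2%) and the Mrps share higher with PAM (10.3%, against 11.0%) were near the background, and 20.7% were higher with poly I:C, against 12.1%. Of the Mrpl genes, 39.6% were higher with poly I:C and 27.1% with PAM, against 12.1% and 11.0% of all genes. Between the ligands, 3 Mrps genes were higher with poly I:C and 5 lower (median -0.04), against 10 and 6 Mrpl genes (median 0.03). These are 10.3% and 17.2% of the Mrps genes and 20.8% and 12.5% of the Mrpl genes, against 12.9% and 15.8% of all genes. The median of the Mrps genes minus that of the Mrpl genes was -0.15 with poly I:C, -0.06 with PAM and -0.06 between the ligands. With PAM it was -0.03 without PAM replicate 2, and between the ligands -0.04 without PAM replicate 1 and -0.02 without poly I:C replicate 2. The mean of the Mrps genes minus that of the Mrpl genes was -0.07 and -0.04 on the poly I:C arrays, -0.01 and -0.01 on the PAM arrays, and 0.08 and 0.09 on the control arrays, so the groups did not overlap. The mean of the Mrpl genes alone was 0.07 and 0.04 with poly I:C, 0.03 and 0.03 with PAM, and -0.14 and -0.07 in control. The mean of the Mrps genes was 0.01 and -0.01 with poly I:C, 0.02 and 0.03 with PAM, and -0.06 and 0.02 in control.

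**Figure D3:**
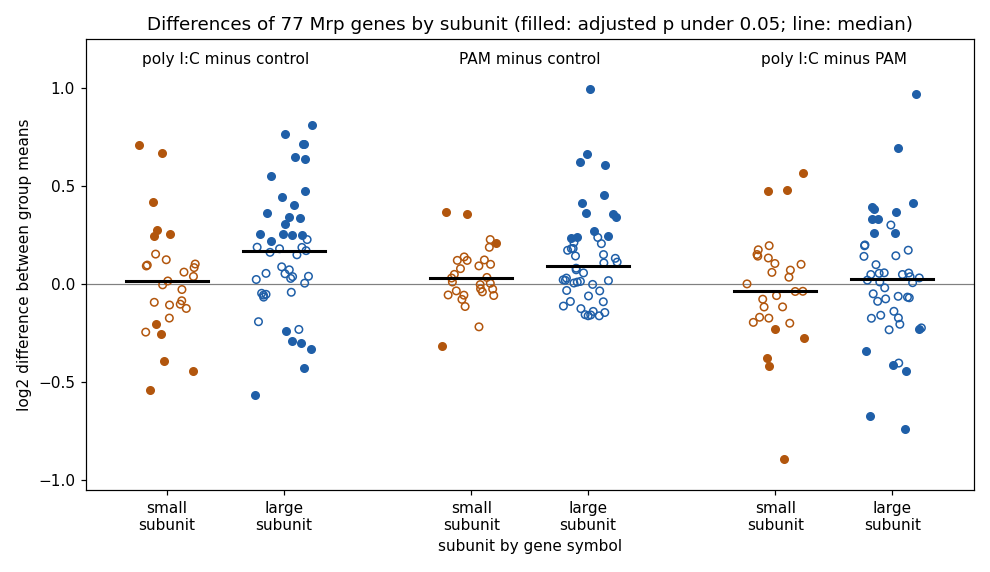
Log2 difference between group means (vertical axis) of each gene in the 3 comparisons, with the 29 Mrps genes left of the 48 Mrpl genes; each point is 1 gene, filled where the adjusted p was under 0.05, and the bar is the median. The medians with poly I:C over control were 0.02 for Mrps and 0.17 for Mrpl genes, and Mrpl52 at 1.00 is the highest point with PAM.

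Assigning proteins by where they sit in the mammalian ribosome moved Mrps18a and Mrps30 to the large subunit, left out Mrps36 and added measured genes without an Mrp symbol. The small subunit then had 4 higher and 5 lower of 29 with poly I:C (median -0.01), and the large subunit 21 higher and 6 lower of 51, with a median of 0.17. These are 13.8% and 17.2% of the small subunit and 41.2% and 11.8% of the large, against 12.1% and 18.2% of all genes. Between the ligands the small subunit had 1 higher and 8 lower, with a median of -0.08, and the large subunit 12 higher and 6 lower, with a median of 0.03. These are 3.45% and 27.6% of the small subunit and 23.5% and 11.8% of the large, against 12.9% and 15.8% of all genes. The small minus large difference of medians between the ligands was then -0.11, where by symbol it was -0.06. With PAM the small subunit had 4 higher and 1 lower (median 0.03), and the large subunit 13 higher and 0 lower by limma (median 0.10, with 1 lower at an unadjusted p under 0.05). These are 13.8% and 3.45% of the small subunit and 25.5% and 0.0% of the large, against 11.0% and 14.0% of all genes. By origin, 13 of the 46 genes with a bacterial counterpart rose and 6 fell with poly I:C (28.3% and 13.0%). Of 30 without one, 12 rose and 5 fell (40.0% and 16.7%), against 12.1% and 18.2% of all genes. Mrps18a and Mrps18b, both higher with poly I:C, were counted among the 30, although they are paralogues of the same bacterial protein as Mrps18c. Mrps18c was counted among the 46, so the shares that rose depend on this choice. With PAM, 7 of the 46 genes with a counterpart were higher and 0 lower by limma (15.2% and 0.0%, with 1 lower at an unadjusted p under 0.05). Of the 30 without a counterpart, 9 were higher and 1 lower (3.33% lower, and 33.3% called in either direction). Over all genes 11.0% were higher with PAM, 14.0% lower and 25.0% called in either direction.

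The other proteins of the mitochondrial ribosome carry no Mrp symbol. Of Dap3, Ptcd3 and Chchd1 in the small subunit and Gadd45gip1 in the large one, 0 of 4 passed with poly I:C by limma, and 0 at an unadjusted p under 0.05. Chchd1 read 0.04 and -0.10 with poly I:C, 0.19 and 0.36 with PAM, and -0.21 and -0.04 in control, and rose with PAM (0.40 ± 0.09, adjusted p = 0.0107). Dap3, Ptcd3 and Chchd1 were lower on poly I:C arrays relative to PAM arrays, at -0.21, -0.23 and -0.30 (adjusted p = 0.0414, 0.0366 and 0.0335). Gadd45gip1 differed by -0.17 between the ligands, which did not pass (adjusted p = 0.115). Aurkaip1 had no probe with a single symbol.

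Other protein families of the same kind gave other counts. Of 60 cytosolic ribosomal proteins, 2 rose and 33 fell with poly I:C (3.33% and 55.0%, median -0.22), and 2 rose and 16 fell with PAM (3.33% and 26.7%, median -0.07). Of 77 nuclear-encoded subunits of the respiratory chain and ATP synthase, 3 rose and 31 fell with poly I:C (3.9% and 40.3%, median -0.14), and 12 rose and 4 fell with PAM (15.6% and 5.19%, median 0.06). Over all genes the shares were 12.1% and 18.2% with poly I:C, and 11.0% and 14.0% with PAM. Between the ligands, 1 cytosolic ribosomal protein was higher with poly I:C and 22 were lower, and 1 respiratory subunit was higher and 29 were lower. These are 1.67% and 36.7%, and 1.3% and 37.7%, against 12.9% and 15.8% of all genes. In either direction, 58.3% of cytosolic ribosomal proteins and 44.2% of the respiratory subunits were called with poly I:C, beside 46.8% of the Mrp genes. The difference between these families and the Mrp genes was not tested.

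Genes that act around the mitochondrial ribosome were counted in lists. Of 27 assembly and ribosomal RNA modification factors, 4 rose and 6 fell with poly I:C, and 4 rose and 3 fell with PAM. These are 14.8% and 22.2% with poly I:C and 14.8% and 11.1% with PAM, near the shares over all genes of 12.1% and 18.2% with poly I:C and 11.0% and 14.0% with PAM. Eral1, a GTPase that binds the small subunit's ribosomal RNA, rose with poly I:C (0.40 ± 0.11, adjusted p = 0.0182), and the GTPase Gtpbp10 of large subunit assembly fell (-0.46 ± 0.09, adjusted p = 0.00443). Tfb1m, which methylates that small subunit RNA, rose with PAM (0.55 ± 0.06, adjusted p = 0.000213), and Rbfa, a small subunit maturation factor, fell (-0.59 ± 0.08, adjusted p = 0.000578). Of 12 mitochondrial translation factors, 1 rose and 2 fell with each ligand (8.33% and 16.7%), also near those shares. The initiation factor Mtif3 rose with poly I:C (0.26 ± 0.07, adjusted p = 0.0216), and Guf1 and the elongation factor Tufm fell (-0.48 ± 0.07 and -0.33 ± 0.08, adjusted p = 0.000747 and 0.0104). The elongation factor Gfm1 rose with PAM (0.30 ± 0.07, adjusted p = 0.0126).

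Of 9 genes for transcription and replication of mitochondrial DNA, 2 rose and 1 fell with poly I:C (22.2% and 11.1%, against 12.1% and 18.2% of all genes). Tfam, which packages mitochondrial DNA, rose by 0.28 ± 0.09 (adjusted p = 0.0459) and the transcription factor Tfb2m fell (-0.75 ± 0.08, adjusted p = 0.000137). Of 13 genes for mitochondrial RNA processing and decay, 2 rose and 3 fell with poly I:C (15.4% and 23.1%), and 5 rose and 1 fell with PAM (38.5% and 7.69%, against 11.0% and 14.0% of all genes). The exoribonuclease Pnpt1, known as a gene induced by interferon, read 1.08 and 1.21 with poly I:C, -0.01 and -0.00 with PAM, and -0.15 and 0.00 in control, a 2.32-fold increase with poly I:C (1.22 ± 0.08, adjusted p = 3.77e-06). Slirp, which with Lrpprc stabilises mitochondrial messenger RNA, rose with poly I:C and with PAM (0.83 ± 0.07 and 0.63 ± 0.07, adjusted p = 1.58e-05 and 0.000121), while Lrpprc fell with poly I:C (-0.48 ± 0.08, adjusted p = 0.00129). Rexo2, an oligoribonuclease, fell with poly I:C (-0.63 ± 0.07, adjusted p = 8.15e-05) and rose with PAM (0.72 ± 0.07, adjusted p = 4.13e-05).

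Of 11 transcription factors and coactivators of mitochondrial biogenesis, 2 rose and 4 fell with poly I:C (18.2% and 36.4%, against 12.1% and 18.2% of all genes). The Myc messenger RNA read -1.10 and -0.97 with poly I:C, -0.12 and 0.12 with PAM, and 1.30 and 1.36 in control, 5.15-fold lower with poly I:C (-2.37 ± 0.09, adjusted p = 1.13e-07) and 2.52-fold lower with PAM (-1.33 ± 0.09, adjusted p = 5.99e-06). Of the factors whose motifs were searched, Gabpa fell with poly I:C (-0.36 ± 0.09, adjusted p = 0.0128), and Nrf1 and Yy1 gave 0.05 ± 0.07 and 0.06 ± 0.07, which did not pass (adjusted p = 0.657 and 0.63). The 2 genes of the list that rose with poly I:C were Esrra and Gabpb1 (0.46 ± 0.07 and 0.28 ± 0.07, adjusted p = 0.00138 and 0.0181). Gabpb2 and Hcfc1 fell (-0.35 ± 0.07 and -0.55 ± 0.08, adjusted p = 0.00308 and 0.000676). Of 11 genes for membrane insertion and quality control, 3 rose and 2 fell with poly I:C (27.3% and 18.2%), and 6 rose and 1 fell with PAM (54.5% and 9.09%, against 11.0% and 14.0% of all genes). Cox18, which inserts a mitochondrially made oxidase subunit into the membrane, rose 2.09-fold with poly I:C (1.06 ± 0.07, adjusted p = 6.21e-06). The 6 increases with PAM were those of Hspe1, Clpp, Lonp1, Hspa9, Hspd1 and Cox18, from 0.53 for Hspe1 to 0.29 for Cox18. Oxa1l, the insertase bound by the ribosome, was the 1 gene of the list that fell with PAM (-0.35 ± 0.06, adjusted p = 0.00295).

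Many of these genes start beside another gene on the opposite strand. With starts at most 1000 bases apart, 26 members had such a neighbour, and 23 pairs were measured. With poly I:C both partners were called in the same direction in 2 pairs and in opposite directions in 4, the member alone was called in 8, the neighbour alone in 2, and neither in 7. Over all genes 30.4% were called with poly I:C. No count was taken for divergent pairs of other genes, so the counts only describe these pairs. Mrpl30 and Mitd1, which starts 66 bases away, rose by 0.71 and 1.95 with poly I:C, and Mrpl32 and the proteasome gene Psma2, 205 bases away, by 0.65 and 0.61. Mitd1 read 1.44 and 1.60 with poly I:C, 0.05 and -0.05 with PAM, and -0.45 and -0.41 in control, so its poly I:C arrays were the highest, as for Mrpl30. With PAM the 2 genes differed. Mitd1 rose (0.43 ± 0.08, adjusted p = 0.00266) and Mrpl30 did not pass (0.02 ± 0.06, adjusted p = 0.891). In other pairs the member moved alone: Mrpl27 gave 0.77 and its neighbour Eme1, 48 bases away, 0.07 ± 0.08 (adjusted p = 0.573). Mrpl46 and Mrps11, which start 42 bases apart, gave 0.55 and 0.04 with poly I:C. The opposite pairs were Mrpl2 with Klc4 (0.25 and -0.73), Mrpl47 with Ndufb5 (0.36 and -0.24), Mrps18b with Ppp1r10 (0.25 and -0.36) and Mrps27 with Ptcd2 (-0.25 and 0.31). Each of these 4 members had an uncertain call with poly I:C: that of Mrpl47 rests on 1 of its 2 probes (0.75 and -0.02), those of Mrps18b and Mrps27 ended without single arrays, and that of Mrpl2 ended without poly I:C replicate 1, poly I:C replicate 2 or control replicate 1 (adjusted p = 0.0948, 0.0594 and 0.061). With PAM, 2 pairs were called in the same direction, 1 in opposite directions (Mrpl41 with Pnpla7, 0.36 and -1.18), the member alone in 6, the neighbour alone in 4 and neither in 10. Over all genes 25.0% were called with PAM.

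**Figure D4:**
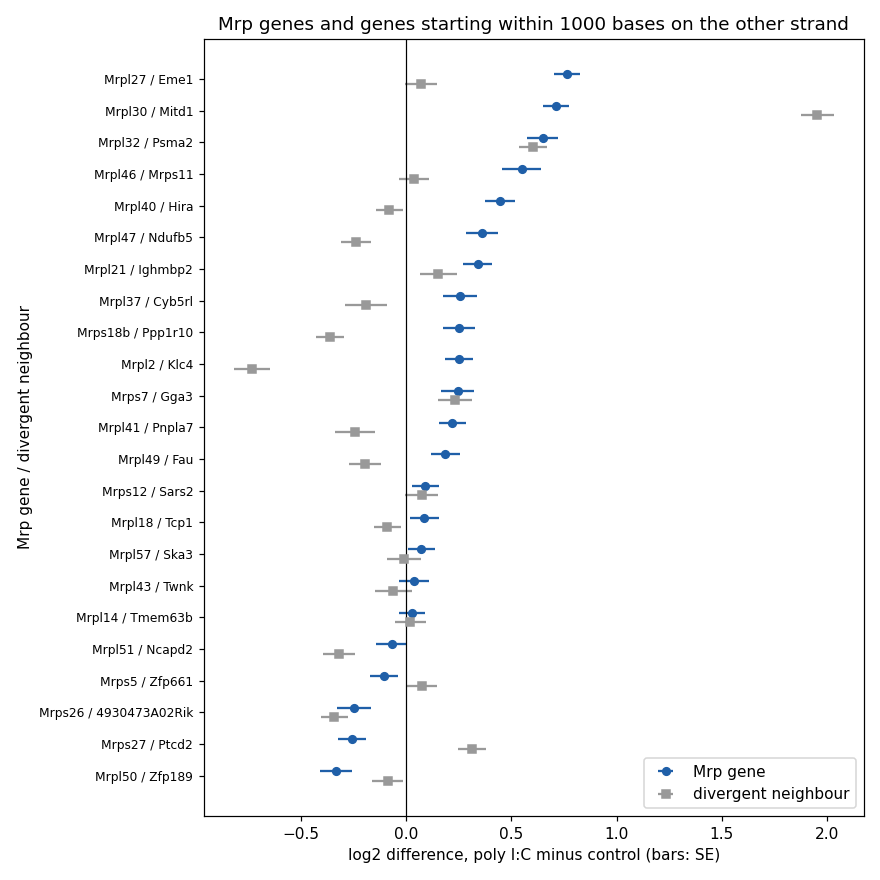
Log2 difference of poly I:C minus control (horizontal axis, bars for the SE) for each of 23 members (blue circles) and for the gene that starts within 1000 bases on the opposite strand (grey squares), with a row for each pair ordered by the member's difference. Mrpl30 with Mitd1, at 0.71 and 1.95, and Mrpl32 with Psma2, at 0.65 and 0.61, are the pairs in which both partners were called higher.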

How the data were processed

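Total RNA was labelled as biotinylated cRNA for Affymetrix arrays, per the labels' protocols. The authors deposited a table of 28815 probes on 6 arrays in log2 units with each probe's median removed (the largest remaining probe median was 5e-07). The log base (taken as 2) and the steps of summary and normalization are not stated in the labels or the table. Array medians lay between -0.0049 and 0.0072, and values were used as deposited. For arrays, the number of arrays limits the precision.

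By the platform annotation 21780 probes had 1 gene symbol, 1605 several and 5430 none. Of the first, 21689 were found by Entrez identifier in a RefSeq gene table (GRCm38.p6), and 0 symbols changed. Probes of a gene were averaged (998 of 19935 genes). limma 3.58.1 in R 4.3.3 fitted 1 mean per group over all 6 arrays with lmFit, then eBayes without trend, because centred values hold no level (3 residual and 5.68 prior degrees of freedom). Benjamini-Hochberg adjustment ran over all genes in each comparison, with a threshold of 0.05. The fit was tested on simulated data. Replicate numbers were not taken as pairs, since the labels name no shared batch and deviations of same-numbered arrays correlated at -0.0101, -0.0727 and 0.155.

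The members, gene lists and comparisons were chosen with earlier results of these data known. Genes were named by rule: in each comparison the 10 largest increases and 10 largest decreases among called members, the smallest changes, members with disagreeing probes or called in opposite directions, the Mrps12, Mrps18, Mrps30, Mrps36 and Mrpl12 genes, and the leading genes of each list. Other genes were named after their values were seen, among them the divergent neighbours. Promoter windows (RefSeq, GRCm38.p6) and figures used Python 3.11.15, numpy 2.4.6, pandas 2.3.3 and matplotlib 3.10.9. The promoter motifs and their letters were chosen after values were seen, and those of NRF1 and the interferon element were shortened by 1 base after a longer form had been searched. Alternatives covered array scaling, the variance model, arrays in the fit, a replicate block, left-out replicates, single probes, dim genes, the threshold and the subunit assignment.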

Additional observations from a re-analysis of the deposited data

Results flagged for a closer look

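Mrpl23 and Mrps28 drew attention because their differences from control ran in opposite directions with the ligands and the ligands differed from each other when tested directly. Mrpl23 differed by -0.67 between poly I:C and PAM, and Mrps28 by -0.89. The rise of Mrpl23 with PAM missed the threshold when any array but control replicate 2 was left out, and that of Mrps28 when PAM replicate 1 was. Both comparisons with control share the control arrays. The difference between the ligands uses them only for the estimate of the spread. It equals the difference with poly I:C minus that with PAM, so for genes called in opposite directions it had to be larger than either. Its passing thus followed from how these genes were picked and is no separate support.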

How the results depend on the processing

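Over the alternatives run other than single probes, no called difference changed sign. Of the 2 probes of Mrpl47, a gene called higher with poly I:C, 1 gave 0.75 and the other -0.02. Single probes are also left out of the counts of recomputed values that follow. The 231 differences of single genes (77 genes in 3 comparisons) gave 2472 recomputed values, of which 2281 stayed on their side of the threshold, 114 that had passed no longer did, and 77 that had not passed did. Robust eBayes changed 0 calls of single genes in all 231. At an adjusted p under 0.01, the higher and lower counts were 16 and 7 with poly I:C, and 10 and 0 with PAM (limma; 3 Mrp genes were lower with PAM at an unadjusted p under 0.05). With only genes at 8 or above on every array, 4 Mrp genes were lower with PAM. With only the 4 poly I:C and PAM arrays in the fit, 17 were lower on poly I:C relative to PAM arrays. Leaving out each array in turn, the counts ranged from 16 to 24 higher and 7 to 12 lower with poly I:C, 10 to 16 higher and 0 to 3 lower with PAM, and 8 to 15 higher and 8 to 17 lower for poly I:C minus PAM. The cause of these changes was not tested, apart from the fewer arrays or genes in each fit. Shares over all genes were not taken in any of the alternatives. Whether the Mrp counts moved more than those of all genes can therefore not be told.

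Leaving out each array, the median of the Mrps genes minus that of the Mrpl genes ranged from -0.199 to -0.1371, from -0.0933 to -0.0288 and from -0.0625 to -0.0206 in poly I:C minus control, PAM minus control and poly I:C minus PAM. Assigned by position in the ribosome it was -0.1849 with poly I:C and -0.1086 for poly I:C minus PAM. As a mean over genes it was -0.139, -0.0933 and -0.0457, and with only genes at 8 or above -0.1839 with poly I:C and -0.0366 for poly I:C minus PAM.

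Fitted with the replicate number as a block, the calls with poly I:C were 25 higher and 10 lower, with PAM 13 higher and 1 lower, and 13 higher and 11 lower for poly I:C minus PAM. Mrpl17 and Mrps15 then missed the threshold with poly I:C (adjusted p = 0.0529 and 0.0553), and Mrpl32, Mrpl35 and Mrps10 with PAM, while Mrpl28 was called lower with poly I:C (adjusted p = 0.0483). The numbers name arrays and pair none. With 2 arrays a group and values without a level, changes of genes near background cannot be set apart from those of genes with a clear signal except by the class at 8 or above.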
